A study of Mus musculus with 16 samples.

Results

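Cultured male germline stem cells (GSCs) of the mouse exposed to 0.5 µM UNC0638, the lowest dose of the inhibitor, were compared with the solvent control, DMSO. These are 2 of the 16 samples of the study, taken by their treatment labels, with earlier results of these data known. GSCs are the cultured counterpart of the stem cells that sustain sperm production. The study profiled 12 RNA libraries and 4 chromatin accessibility libraries, the latter not analysed here. The RNA libraries came from feeder culture, from feeder-free culture on Matrigel, a basement membrane extract, from sorted GFP fractions and from inhibitor-treated cells.

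Both cultures derived from B6;CBA-Tg(Pou5f1-EGFP)2Mnn/J mice, in which the Pou5f1 (Oct4) promoter drives EGFP. Germ cells positive for Oct4 and negative for KIT had been sorted from mice of postnatal day 5.5. They were grown on mouse embryonic fibroblasts (MEF) in StemPro-34 medium with GDNF, bFGF and EGF. One culture received DMSO and the other 0.5 µM UNC0638 for 48 hours, and cultures at 1 and 2 µM completed the dose series. How many mice were pooled, how long DMSO was applied and whether feeder cells were removed before extraction were not given in the sources used here. The feeders are also mouse cells, so their reads cannot be told apart from those of the germ cells.

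UNC0638 blocks the catalytic site of the histone methyltransferases G9a (Ehmt2) and GLP (Ehmt1), which together place mono- and dimethylation on lysine 9 of histone H3, a mark of silent euchromatic genes. Fibroblasts make fibrillar collagens, which need chaperones and hydroxylases inside the cell and proteases and lysyl oxidases outside it. Sterol synthesis runs from acetyl-CoA through mevalonate, farnesyl diphosphate and lanosterol to cholesterol, and SREBP2 (Srebf2) switches its enzymes on when membrane sterol is low.

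The DMSO library held 5039912 counts and the 0.5 µM library 5230412, within the range of 4335185 to 12019651 over all 12 libraries. In them 17319 and 17453 genes had counts. Levels are in CPM, for which each library's counts were brought to the same total with TMM factors that correct for differences in RNA composition. A ratio is the log2 of (CPM + 1) at 0.5 µM over that with DMSO, and a gene was called at 2-fold or more. With 1 library a side there is no spread between replicates to set a difference against, and no test was run. The interval after a ratio is the 95% Clopper-Pearson interval of the read split, which covers counting error only. A count of 3, taken as the floor, equalled 0.599 CPM with DMSO and 0.578 CPM with 0.5 µM.

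Both libraries carried the germ cell label in their transcripts. The RNA helicase gene Ddx4 was at 605 and 623 CPM and Dazl, an RNA-binding regulator of germ cells, at 1677 and 1812 CPM. Transcripts typical of fibroblasts, whatever cells they came from, were also plentiful in the DMSO library, where Col1a1 reached 1088 CPM. Markers of other testis cells were low: 14 macrophage markers summed to 10.8 and 10.2 CPM, with 9 and 6 of them at 0, and 7 of 8 Leydig markers were at 0 in both. The 13 Sertoli markers in the table summed to 50.5 and 53.1 CPM, with 4 and 3 of them at 0. Of 10 endothelial markers, which summed to 158 and 72.6 CPM, 3 and 4 were at 0 and most of the sum was Flt1 (83.6 and 36.6 CPM) and Plvap.

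Of 14301 genes whose mean over all RNA libraries reached 1 CPM, 226 (1.58%) were at least 2-fold higher at 0.5 µM and 305 (2.13%) at least 2-fold lower. Against the same DMSO library and at the same 2-fold threshold, 2.59% of genes rose and 4.12% fell at 1 µM, and 3.42% rose and 3.59% fell at 2 µM. At 0.5 µM, at any size, 48.1% of genes were above DMSO and 51.6% below it, and the interval lay above no change for 11.7% and below it for 13.2%. Most of the genes that rose were weakly expressed, since 14.6% of them reached 50 counts, against 34.4% of those that fell. Among 9809 genes with at least 50 counts in 1 of the 2 libraries, 33 rose (0.336%) and 105 fell (1.07%). The middle 95% of ratios of these 9809 genes lay between -0.72 and 0.58. Centring the ratios on the median of a germ cell list, a setting chosen after seeing the data, moved the median of all genes from -0.01 to -0.15 and the share of calls that were higher from 42.6% to 24.3%.

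**Figure D1:**
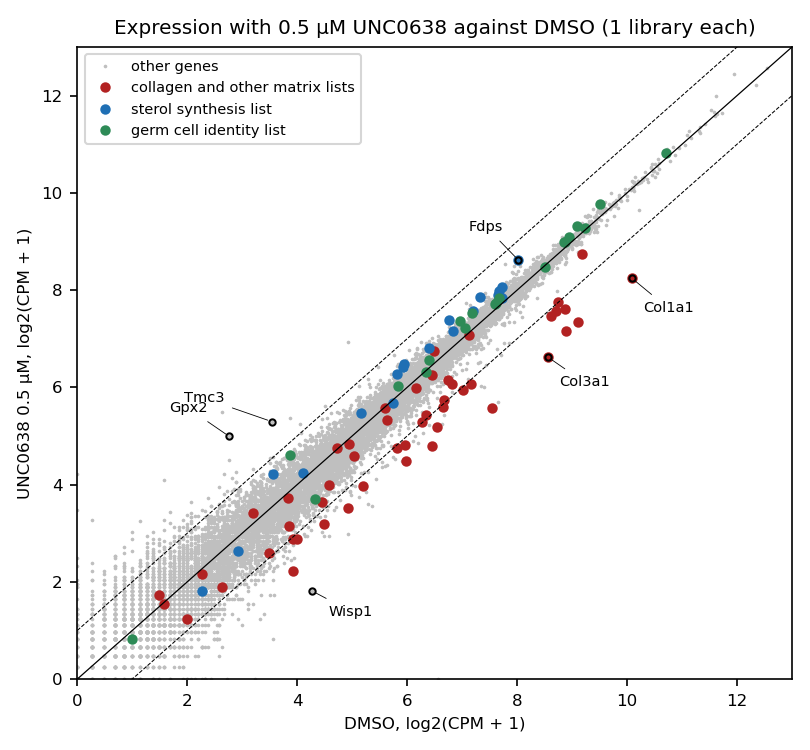
Level of each gene past the filter with DMSO (x axis) and with 0.5 µM UNC0638 (y axis), both as log2 of (CPM + 1) in 1 library each; coloured points are list members, the solid line marks equal levels and dashed lines 2-fold. Genes beyond the upper line lie mostly at low levels, collagen genes such as Col1a1 (1088 and 302 CPM) lie below the lower line at high levels, and no sterol synthesis gene lies beyond the upper line.

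Genes of the major fibrillar collagens fell, and Col3a1, Col1a1 and Col1a2 were among the 15 lowest ratios of genes with at least 50 counts. Type I collagen, the main fibre of skin, bone and tendon, is made of the products of Col1a1 (chr11:94936224-94953042, build GRCm38.p6) and Col1a2 (chr6:4505618-4541543). Col1a1 was at 1088 CPM with DMSO, 302 CPM at 0.5 µM, 137 CPM at 1 µM and 149 CPM at 2 µM. Its 0.5 µM ratio was -1.84 (-1.93 to -1.77). In the deposited TPM, which corrects for transcript length, Col1a1 went from 387 to 107. Col1a2 was at 553, 162, 68.9 and 75.6 CPM in the same order, a ratio of -1.76 (-1.88 to -1.66). The DMSO library was the highest of the 4 for both genes, and the 0.5 µM library lay between it and the higher doses. All dose ratios share that 1 DMSO library.

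The type III and type V chains, which join type I fibres, moved to different extents. Col3a1 (chr1:45311538-45349706) went from 377 CPM with DMSO to 97.4 CPM at 0.5 µM and to 12.7 and 18.1 CPM at 1 and 2 µM, with a 0.5 µM ratio of -1.94 (-2.10 to -1.81). Col5a2, its neighbour on the chromosome, was at 87.0, 26.6, 10.3 and 14.9 CPM (-1.67, -2.00 to -1.43). Col11a1, a minor fibrillar chain, fell to 6.35 CPM (-1.12), although its ratio was -0.85 in TPM. Col5a1 was at 101 and 52.6 CPM (-0.93, -1.16 to -0.72), short of 2-fold, and Col5a3 at 8.18 and 9.63 CPM (0.21, -0.39 to 0.87). The fibrillar chains thus did not share 1 ratio, and the lowly expressed Col5a3 had an interval that spanned no change.

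Among the genes that fold, cut and cross-link collagen, 4 members fell, the chaperone and part of the extracellular enzymes. Serpinh1 (HSP47), the collagen chaperone of the endoplasmic reticulum, was at 99.8, 47.4, 30.2 and 38.9 CPM with DMSO and the 3 rising doses (-1.06 at 0.5 µM, -1.30 to -0.85). Bmp1, the protease that removes the C-terminal propeptide, fell from 35.9 to 14.6 CPM (-1.24, -1.70 to -0.90). Lox, the lysyl oxidase that starts cross-linking, was at 466, 194, 59.7 and 93.7 CPM (-1.26, -1.37 to -1.16), and its relative Loxl3 also fell (-1.30). The other extracellular enzymes were short of 2-fold, with Loxl1 at -0.92, the procollagen protease gene Adamts2 at -0.83 and Loxl2 at -0.69, each with an interval below no change. The intracellular hydroxylases were not called, and their ratios ran from -0.77 to 0.25. The lowest was that of P4ha3, at 2.99 and 1.35 CPM with an interval spanning no change (-2.69 to 0.23). P4ha1, a catalytic subunit of prolyl 4-hydroxylase, was at 47.3 and 46.6 CPM (-0.02, -0.29 to 0.24). The lysyl hydroxylase gene Plod1 was at 139 and 134 CPM (-0.05, -0.21 to 0.10). Plod2, another lysyl hydroxylase, was at 88.6 and 106 CPM (0.25, 0.07 to 0.44), the only member with an interval above no change. All 26 genes of the collagen list were in the table and 25 passed the filter. Of these 9 fell (2.13% of all genes) and 0 rose (1.58%), 16 had an interval below no change (13.2% of all genes) and 1 above (11.7% of all genes), and the median ratio was -0.77 against -0.01 over all genes. The members' summed level was 3593 CPM with DMSO and 1544 CPM at 0.5 µM.

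The other matrix genes of fibroblasts moved further, with a median ratio of -1.04. Tnc, which encodes tenascin-C, an anti-adhesive glycoprotein of remodelling tissue, was at 186 CPM with DMSO, then 47.0, 22.0 and 28.2 CPM at the rising doses. Its 0.5 µM ratio of -1.96 (-2.19 to -1.78) was the lowest of the list. Thbs1 (thrombospondin 1), an activator of latent TGF-beta, was at 474, 142, 83.1 and 123 CPM (-1.73, -1.86 to -1.62). Sparc, a collagen-binding matrix protein, was at 418, 189, 70.0 and 100 CPM (-1.14, -1.25 to -1.03). Each had its highest level with DMSO and its lowest at 1 µM. Postn (periostin) fell from 62.1 to 21.4 CPM (-1.50), the proteoglycan gene Lum from 14.2 to 3.66 CPM (-1.70) and Fbln2 from 392 to 176 CPM (-1.15). The type VI collagen genes Col6a1 (-1.35) and Col6a3 (-1.42) fell as well, and Col6a2 was at -0.96.

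Other members of the matrix list had smaller ratios. The microfibril gene Mfap2 (-0.11), Tgfbi (-0.09) and the elastin gene Eln (-0.03) had intervals spanning no change, and Ltbp2, which binds microfibrils, was at -0.46. Fn1, which encodes the fibronectin that cells assemble into fibrils, was at 582, 425, 242 and 257 CPM (-0.45, -0.53 to -0.37), a smaller difference at 0.5 µM than at the higher doses. Fbln1 was at 204 CPM with DMSO, then 234, 199 and 164 CPM at the rising doses (0.20, 0.08 to 0.32), and was the only member above DMSO at 0.5 µM. Of 26 listed genes 25 passed the filter, and 14 fell (2.13% of all genes), 0 rose (1.58%) and 20 had an interval below no change (13.2%). Their summed level was 3583 CPM with DMSO and 1882 CPM at 0.5 µM.

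Targets of YAP and TGF-beta, which include the secreted CCN proteins, fell in part. Wisp1 (CCN4; chr15:66891369-66923201) had the largest fall among the members, from 18.4 CPM with DMSO to 2.50, 1.40 and 2.98 CPM (-2.47 at 0.5 µM, -3.84 to -2.03). Ctgf (CCN2) was at 40.1, 10.8, 3.66 and 8.48 CPM (-1.80, -2.35 to -1.46) and Cyr61 (CCN1) at 98.0, 37.2, 15.9 and 25.4 CPM (-1.38, -1.65 to -1.16). The activin subunit gene Inhba fell from 10.4 to 2.31 CPM (-1.78). The members past the filter that were not called, Tgfb1 aside, ranged from -0.97 to 0.36. Fst (follistatin), which binds activin, was at 28.1 and 13.9 CPM (-0.97, -1.45 to -0.60), and the receptor gene Tgfbr2 at 51.3 and 31.4 CPM (-0.69, with an interval below no change). The ligand gene Tgfb3 was at -0.82 (-2.14 to -0.04), and Tgfb1 had too few counts for a usable ratio (2 and 7). Lats2, a kinase that restrains YAP, was at 107 and 121 CPM (0.17, 0.00 to 0.34), and Amotl2, a junction protein of the same pathway, at 82.6 and 70.9 CPM (-0.22, -0.43 to -0.02). Smad7, an inhibitor of TGF-beta signalling, was at 15.6 and 20.2 CPM (0.36, -0.06 to 0.82). Of 19 members past the filter 5 fell (2.13% of all genes) and 0 rose (1.58%), and the median was -0.46.

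Markers of the fibroblast itself were lower with a similar median, -0.82. Pdgfrb, the receptor for PDGF-B in mesenchymal cells, fell from 29.5 CPM to 6.93, 5.76 and 7.33 CPM (-1.95 at 0.5 µM, -2.66 to -1.56). Pdgfra, the partner receptor, was at 56.7, 31.8, 21.1 and 20.2 CPM (-0.82, -1.12 to -0.55). The intermediate filament gene Vim was at 134, 63.2, 42.6 and 82.5 CPM (-1.07, -1.28 to -0.89). For Pdgfrb all 3 treated libraries lay at similar low levels, while Pdgfra and Vim at 0.5 µM lay between DMSO and 1 µM. Twist2, a transcription factor of mesenchyme, fell from 14.4 to 4.62 CPM (-1.45), and the gelatinase gene Mmp2 fell from 168 to 63.0 CPM (-1.40). The contractile genes of myofibroblasts were not called, and their ratios differed. Acta2 was at 16.4 and 13.9 CPM (-0.22, -0.72 to 0.23), with Tpm1 (-0.20), Tpm2 (-0.27) and Tagln (-0.20) alike in having intervals that spanned no change. Cald1 was at -0.49 (-0.80 to -0.21) and the weakly expressed Myl9 at -0.93 (-2.49 to -0.13). S100a4, often used as a fibroblast marker, was at 46.7, 52.0, 21.3 and 44.0 CPM (0.15, -0.10 to 0.41) and was the only member past the filter that was higher. Of 23 such members 7 fell (2.13% of all genes) and 0 rose (1.58%).

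Basement membrane genes were mostly lower, to different extents. Col4a1, a type IV collagen chain, fell from 208 to 101 CPM (-1.04, -1.20 to -0.90), Nid1, which links laminin to type IV collagen, from 377 to 184 CPM (-1.03), and the laminin gene Lama2 from 6.59 to 2.12 CPM (-1.28, and -0.64 in TPM). Nid2 was at 537 and 483 CPM (-0.15, -0.23 to -0.07) and Lama5, the laminin chain of many epithelia, at 62.7 and 68.2 CPM (0.12, -0.10 to 0.34). Of 15 members past the filter 3 fell (2.13% of all genes) and 0 rose (1.58%), with a median of -0.45. At any size 13 were lower (51.6% of all genes), and 10 had an interval below no change (13.2%) and 0 above (11.7%).

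**Figure D2:**
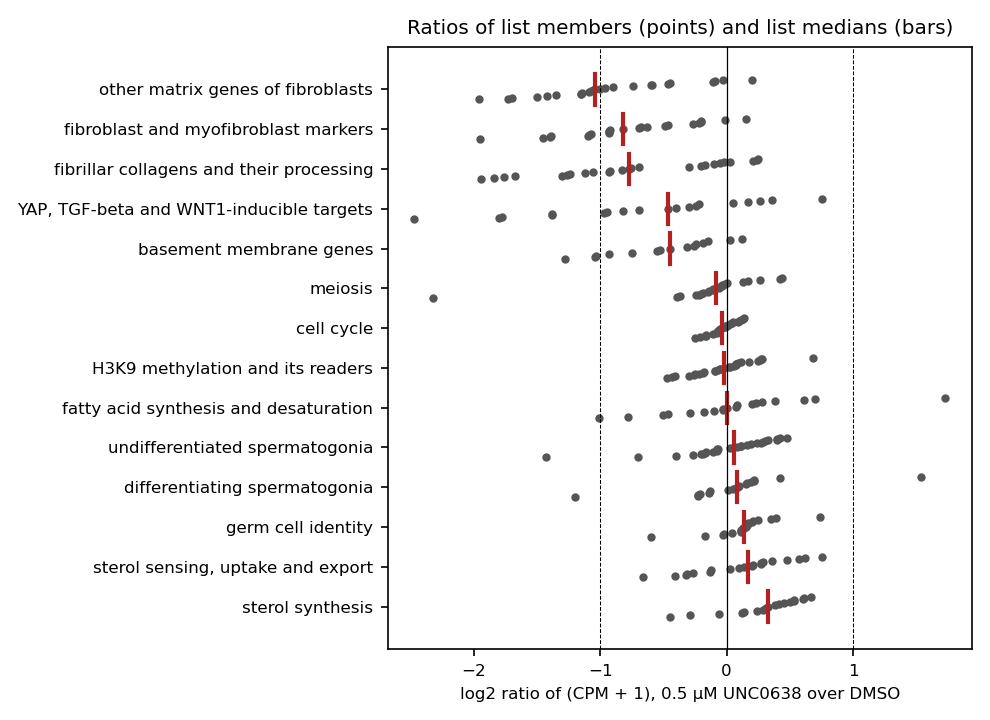
Log2 ratio of (CPM + 1), 0.5 µM UNC0638 over DMSO (x axis), of each member past the filter (points) in 14 gene lists, with the list median as a bar and dashed lines at 2-fold. The matrix, collagen and fibroblast lists have medians of -1.04, -0.77 and -0.82, the sterol synthesis list has 0.33 with no member at 2-fold, and the germ cell and chromatin lists centre near 0.

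The DMSO library had more of these transcripts than the other feeder library without inhibitor, the day 0 culture of the feeder-removal experiment. Col1a1 was at 70.5 CPM and Col3a1 at 19.4 CPM in that library, against 1088 and 377 CPM with DMSO and 302 and 97.4 CPM at 0.5 µM. The collagen list summed to 639 CPM at day 0, to 1544 CPM at 0.5 µM and to 3593 CPM with DMSO, and in 20 of its 25 members the 0.5 µM level lay between the day 0 and DMSO levels. The matrix list summed to 721, 1882 and 3583 CPM, with 22 of 25 members in between. The fibroblast list summed to 457, 740 and 1279 CPM, with 17 of 23 in between. The germ cell identity list ran the other way, at 9520, 7270 and 6589 CPM. The list of undifferentiated spermatogonia did not, at 3004, 5680 and 5329 CPM in the same order. The part that the amount of feeder material played in the matrix ratios was not tested, and in bulk RNA fewer cells of a type and less RNA per cell cannot be told apart. Experiment and any batch also cannot be told apart across these libraries.

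The lower genes overlapped with a difference between 2 other libraries, which entered the scaling and the filter but not the ratio. Mesenchymal-like and epithelial-like GSC cultures were grown without feeders on dense and sparse Matrigel, and Col1a1 was at 2377 and 84.0 CPM in them, Tnc at 249 and 3.05 CPM and Thbs1 at 2177 and 41.8 CPM. In all, 1527 genes (10.7% of those past the filter) were at least 2-fold higher in the mesenchymal-like library. Of the 305 genes that fell at 0.5 µM, 150 (49.2%) were among them, which is 9.82% of the 1527. Of the 105 lower genes with at least 50 counts, 84 (80.0%) were among them, against 7.35% of all 9809 genes at that depth. With the filter set on the DMSO and 0.5 µM libraries alone, 156 of 324 lower genes (48.1%) were higher in the mesenchymal-like library, against 10.6% of 14044 genes. Of the 226 genes that rose, 33 (14.6%) were. The 1527 genes had a median 0.5 µM ratio of -0.25, against 0.00 for the other genes. No replicate check exists for this overlap.

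**Figure D3:**
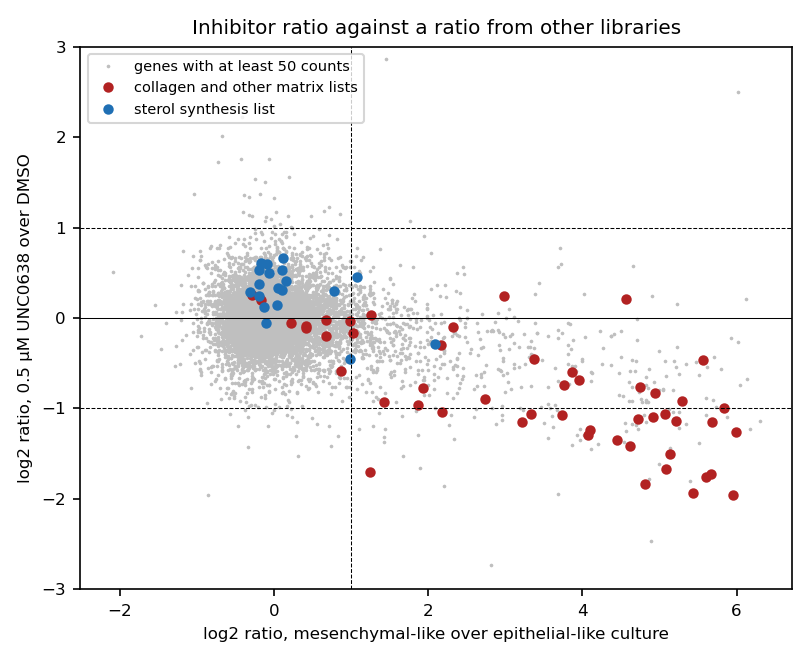
Log2 ratio at 0.5 µM UNC0638 over DMSO (y axis) against the log2 ratio of the mesenchymal-like over the epithelial-like culture (x axis) for genes with at least 50 counts, with list members past the filter at any count added, the collagen and matrix lists in red and the sterol synthesis list in blue, and dashed lines at 2-fold; 3 genes lie outside the plotted range. Most red points lie below 0 and to the right of the vertical line, with Col1a1 at -1.84 on the y axis and 4.81 on the x axis, and 16 of the 19 blue points lie above 0.

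Sterol synthesis genes were higher together, by ratios that stayed under 2-fold. Some of their promoters are shown before the values because 2 of the 3 motifs searched were frequent there. RefSeq (GRCm38.p6) promoters were matched for 14 of the 19 synthesis genes in the table. Fdps, Fdft1 and Sqle are among those that were not matched. The 250 bases before the start are printed 5′ to 3′ on the strand of the gene for Insig1, the sterol sensor whose product retains SREBP, and for 3 enzymes with 1 listed start each. They are Insig1 at chr5:28071162-28071411 (plus strand), Mvd at chr8:122443423-122443672 (minus strand), Nsdhl at chrX:72918271-72918520 (plus strand) and Cyp51 at chr5:4104698-4104947 (minus strand). Capitals mark CCAAT, the letters bound by NF-Y, and GGGCGG, the GC box bound by SP1, on either strand (ATTGG and CCGCCC on the other).
Insig1: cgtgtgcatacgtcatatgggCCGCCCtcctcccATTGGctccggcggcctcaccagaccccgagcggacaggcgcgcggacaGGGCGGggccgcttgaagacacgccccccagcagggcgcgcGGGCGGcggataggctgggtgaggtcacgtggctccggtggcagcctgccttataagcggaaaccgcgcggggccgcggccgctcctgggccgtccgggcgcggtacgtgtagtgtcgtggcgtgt
Mvd: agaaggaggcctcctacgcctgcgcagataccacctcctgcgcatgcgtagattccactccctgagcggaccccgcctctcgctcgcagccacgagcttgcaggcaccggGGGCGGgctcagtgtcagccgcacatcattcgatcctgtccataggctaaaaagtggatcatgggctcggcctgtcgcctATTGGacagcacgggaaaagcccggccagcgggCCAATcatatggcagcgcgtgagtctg
Nsdhl: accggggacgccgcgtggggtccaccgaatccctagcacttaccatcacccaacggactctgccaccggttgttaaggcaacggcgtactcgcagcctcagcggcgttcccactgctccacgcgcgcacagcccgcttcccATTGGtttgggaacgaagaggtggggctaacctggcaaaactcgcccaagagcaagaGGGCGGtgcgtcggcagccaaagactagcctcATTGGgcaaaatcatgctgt
Cyp51: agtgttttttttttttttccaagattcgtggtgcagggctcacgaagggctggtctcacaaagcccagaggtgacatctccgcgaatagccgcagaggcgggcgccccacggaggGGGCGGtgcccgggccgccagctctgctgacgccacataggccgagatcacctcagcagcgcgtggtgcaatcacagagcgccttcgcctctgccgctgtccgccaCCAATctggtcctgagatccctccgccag

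All 4, chosen with their motifs known, hold at least 1 copy of each motif. Over the 17 promoters of the 14 synthesis genes, 13 (76.5%) held CCAAT, 14 (82.4%) GGGCGG and 12 (70.6%) both. Among 12574 promoters of genes past the filter the shares were 35.6%, 57.7% and 20.4%, and among all 32851 promoters of 27025 genes 33.8%, 32.7% and 11%. The third motif searched, 1 form of the sterol regulatory element bound by SREBP, with any base allowed at 1 position and on both strands, was in 0 of the 17 promoters and in 0.192% of all promoters. The 18 promoters of 17 collagen-list genes had 33.3% with CCAAT, 72.2% with GGGCGG and 22.2% with both. The 20 promoters of 14 genes that sense and move sterols, to which Insig1 belongs, had 45% with CCAAT, 55% with GGGCGG and 25% with both. A match describes letters in a window and is neither a binding site nor a cause, and some genes have several listed starts.

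In the mevalonate part of the pathway the members named here were above DMSO to different extents. Acat2, which condenses acetyl-CoA, was at 146, 190, 247 and 241 CPM (0.38, 0.24 to 0.52). Mvk, the mevalonate kinase, was at 16.2 and 17.9 CPM (0.14, -0.30 to 0.60), and Pmvk, the next kinase, at 10.8 and 17.7 CPM (0.67, 0.22 to 1.23). Both Mvk (21.8 and 26.8 CPM at 1 and 2 µM) and Acat2 lay above DMSO in every treated library, but the 0.5 µM interval of Mvk spanned no change. Mvd, the mevalonate diphosphate decarboxylase, was at 60.7, 87.8, 115 and 106 CPM (0.53, 0.32 to 0.75), and Idi1, which makes the isoprenyl isomer needed for chain growth, was at 204, 251, 315 and 283 CPM (0.29, 0.18 to 0.41). Hmgcs1 was not analysed here.

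Fdps (chr3:89093588-89101967), which makes farnesyl diphosphate, was at 259 CPM with DMSO, then 392, 436 and 478 CPM at 0.5, 1 and 2 µM. Its 0.5 µM ratio was 0.60 (0.50 to 0.70), and its TPM went from 391 to 590. Fdft1 (squalene synthase), the first enzyme committed to sterols, was at 159, 231, 245 and 253 CPM (0.53, 0.40 to 0.67). In both genes all 3 treated libraries lay above DMSO, and the step from DMSO to 0.5 µM was larger than the further step to 2 µM. Sqle, the squalene epoxidase, was at 200, 237, 250 and 220 CPM (0.24, 0.12 to 0.37). Lss, which closes the rings to lanosterol, was at 113 and 141 CPM (0.31, 0.15 to 0.47).

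Past lanosterol, Cyp51, the demethylase, was at 211, 266, 308 and 338 CPM (0.33, 0.22 to 0.45). Sc4mol (now Msmo1), a methylsterol oxidase, was at 83.2 and 111 CPM (0.41, 0.23 to 0.60), and Nsdhl, which acts after it, at 59.5, 84.3, 80.8 and 66.9 CPM (0.50, 0.29 to 0.72). Dhcr7, a terminal reductase of the pathway, was at 108, 165, 166 and 170 CPM (0.61, 0.46 to 0.77). Dhcr7 reached its full level at 0.5 µM, whereas Cyp51 was higher at each further dose. Of the members below DMSO, 2 were weakly expressed: Ebp was at 6.59 CPM with DMSO (-0.29) and Tm7sf2 at 3.79 and 2.50 CPM (-0.45), both with intervals spanning no change.

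Of the 20 listed synthesis genes 19 were in the table and all 19 passed the filter. Of them 16 were higher than DMSO (48.1% of all genes were), 14 had an interval above no change (11.7% of all genes) and 0 had one below (13.2%). None reached 2-fold, against 1.58% of all genes. The median ratio was 0.33 at 0.5 µM, beside 0.52 at 1 µM and 0.65 at 2 µM. The summed level was 1995 CPM with DMSO and 2597 CPM at 0.5 µM, and 1853 CPM in the day 0 feeder library. Germ cell genes were also higher at 0.5 µM, with a median of 0.14. Centred on that value, the sterol median was 0.19 and 14 of the 19 genes were still above 0. Whether the lower share of transcripts typical of fibroblasts plays a part in the sterol ratios was not tested.

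Genes that sense and move sterols were mixed. Insig1 was at 244, 362, 427 and 442 CPM (0.57, 0.47 to 0.68), and Srebf2, the transcription factor of the pathway, at 238, 332, 265 and 280 CPM (0.48, 0.37 to 0.59). Srebf2 was highest at 0.5 µM, while Insig1 was higher at each dose. Scarb1, a receptor for high-density lipoprotein, was at 71.9, 111, 93.2 and 92.3 CPM (0.62, 0.43 to 0.82). Insig2 (30.5 and 22.7 CPM, -0.41), the endosomal cholesterol exporter Npc1 (54.5 and 43.9 CPM, -0.31) and the lysosomal lipase Lipa (86.0 and 68.6 CPM, -0.32) were lower, each with an interval below no change. Of 20 members 13 were higher (48.1% of all genes) and 7 lower (51.6%), 5 had an interval above no change (11.7%) and 5 below (13.2%), and 0 reached 2-fold (1.58% higher and 2.13% lower over all genes).

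Fatty acid genes, partly under the related factor SREBP1 (Srebf1, 172 and 208 CPM, ratio 0.27), had a median of 0.00. Olah (chr2:3341987-3366569), a thioesterase that releases medium-chain fatty acids, was the only member that rose, from 5.79 CPM to 21.6, 19.7 and 26.1 CPM (1.73 at 0.5 µM, 1.30 to 2.54). Fasn, the fatty acid synthase itself, was at 278 and 326 CPM (0.23, 0.12 to 0.33), and the desaturase gene Scd1 at 15.8, 24.6, 30.9 and 39.9 CPM (0.61, 0.23 to 1.07). Mod1 (malic enzyme 1, now Me1), a source of NADPH, was at 49.3 and 28.3 CPM (-0.78, -1.11 to -0.50). Fads3, a desaturase relative, fell from 7.98 to 3.47 CPM (-1.01, and -0.88 in TPM). Of 19 members past the filter 10 were higher and 9 lower (48.1% and 51.6% of all genes). With 1.58% of all genes called higher and 2.13% lower, 1 call each way is too few to read as a result about the list.

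No germ cell identity gene reached 2-fold, and most were slightly higher. Of 20 germ cell identity genes, mostly of the piRNA pathway that silences transposons, 16 were higher (48.1% of all genes) and 4 lower, 12 had an interval above no change (11.7%) and 1 below (13.2%), and 0 were called (1.58% higher and 2.13% lower over all genes). Piwil2, a piRNA-binding protein, was at 547, 633, 556 and 430 CPM (0.21, 0.14 to 0.28). Piwil4, its nuclear relative, was at 13.6 CPM with DMSO, 23.3 CPM at 0.5 µM and 8.48 CPM at 2 µM (0.74 at 0.5 µM, 0.34 to 1.23). The list median was 0.14 at 0.5 µM, 0.12 at 1 µM and -0.04 at 2 µM.

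The self-renewal genes of undifferentiated spermatogonia had a median of 0.06. Gfra1, the GDNF co-receptor, was at 132, 118, 108 and 97.4 CPM (-0.16, -0.32 to 0.00), and Ret, the GDNF receptor kinase, at 437, 462, 413 and 375 CPM (0.08, 0.00 to 0.16). The GDNF-responsive factor genes Etv5 (282 and 246 CPM, -0.19) and Lhx1 (63.9 and 48.3 CPM, -0.40) were lower with intervals below no change. Zbtb16 (94.4 and 119 CPM, 0.33), Lin28 (now Lin28a; 80.8 and 107 CPM, 0.40) and Uchl1 (830 and 1017 CPM, 0.29) were higher with intervals above it. Pou5f1, whose promoter drives the reporter, was at 43.9, 54.1, 43.5 and 46.7 CPM (0.30, 0.04 to 0.56). Of 28 members past the filter 15 were higher and 13 lower (48.1% and 51.6% of all genes). The only call, a share near the 2.13% of all genes called lower, was Plvap, a gene of fenestrated endothelium also used as a marker of the most primitive spermatogonia, which fell from 59.3 CPM to 21.4, 12.2 and 9.16 CPM (-1.43 at 0.5 µM, -1.80 to -1.15). The other endothelial marker with a comparable level, Flt1, fell too (-1.17, -1.45 to -0.94), while Pecam1 (0.26) and Tek (0.38) were above DMSO with intervals spanning no change and Kdr went from 3.59 to 1.35 CPM (-0.97, -2.92 to -0.09). The markers Cdh5, Tie1, Emcn, Esam1 and Robo4 were each below 1 CPM in both libraries.

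Genes of differentiating spermatogonia held 1 rise and 1 fall, too few calls to read as a result about the list (1.58% and 2.13% of all genes). Neurog3 (chr10:62133090-62134763), a transcription factor of progenitors about to differentiate, rose from 5.39 CPM to 17.5, 17.8 and 11.9 CPM (1.54 at 0.5 µM, 1.07 to 2.38). Stra8, the retinoic acid-induced gene of meiotic entry, fell from 30.5 CPM to 12.7 CPM, beside 17.5 and 18.3 CPM at the higher doses (at 0.5 µM an interval of -1.70 to -0.84). DMSO was thus the lowest of the 4 libraries for Neurog3 and the highest for Stra8. Kit, the receptor that marks differentiating cells, was at 38.3 and 42.9 CPM (0.16, -0.12 to 0.45), and Sohlh1, a driver of differentiation, was at 172, 231, 241 and 252 CPM (0.42, 0.30 to 0.55). The retinoic acid receptor genes Rara (0.22) and Rarg (0.05) had intervals spanning no change. Of 18 members past the filter 12 were higher and 6 lower (48.1% and 51.6% of all genes), and the median was 0.08.

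Meiotic genes were mostly close to DMSO, with 5 of 22 higher (48.1% of all genes), 17 lower (51.6%) and a median of -0.09. The synaptonemal complex genes differed from each other: Sycp3, of the lateral element, was at 117, 159, 211 and 210 CPM (0.44, 0.29 to 0.60), while Sycp1, of the transverse filament, was at 218 and 209 CPM (-0.06, -0.18 to 0.06). The only call (2.13% of all genes were called lower) was Prdm9, which sets recombination hotspots and went from 20 counts to 0, at least 6.91-fold lower, with 2.27 and 1.60 CPM at 1 and 2 µM.

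The inhibitor acts on proteins, and the transcripts of its targets were within 2-fold of DMSO. Ehmt1 was at 115, 100, 103 and 124 CPM (-0.19, -0.37 to -0.02) and Ehmt2 at 240, 256, 259 and 293 CPM (0.09, -0.02 to 0.21). Of 29 genes for H3K9 methylation and its readers 14 were higher and 15 lower (48.1% and 51.6% of all genes). An interval above no change was found for 3 of them (11.7% of all genes) and below it for 6 (13.2%), and the list median was -0.02. None was called, a count that says little in a list of this size, since 1.58% of all genes were called higher and 2.13% lower. Cbx5, which encodes the heterochromatin protein HP1 alpha, was at 155, 125, 121 and 120 CPM (-0.30, -0.46 to -0.15). The genes for the de novo DNA methylation enzymes and their cofactor were all higher: Dnmt3a was at 134 and 160 CPM (0.25, 0.11 to 0.41), Dnmt3b at 106 and 128 CPM (0.27, 0.10 to 0.44), and Dnmt3l at 6.59, 11.2, 14.7 and 17.0 CPM (0.68, 0.12 to 1.42).

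Genes known as silenced by G9a in other cells were examined as a list. Of 20 listed genes 17 were in the table and 11 passed the filter, with a median of -0.15. Of these, 3 were higher (48.1% of all genes) and 8 lower (51.6%), and 4 had an interval below no change (13.2%) and 0 above (11.7%). None was called, and with 1.58% of all genes called higher a list of this size says little by that count. Magea2, a germline gene of the X chromosome, was at 46.3, 51.8, 59.0 and 55.4 CPM (0.16, -0.10 to 0.42). The testis tubulin gene Tuba3a was at 1865, 1755, 1705 and 1587 CPM (-0.09, -0.13 to -0.05). These genes were already expressed with DMSO. Zscan4e, of the 2-cell embryo, was at 2.60 and 2.70 CPM, and 6 members, among them Zscan4d, Zscan4f and Magea1, were at 0 in both libraries. Reads of Magea, Tuba3 and Zscan4 genes can be shared between near-identical copies, so their levels are uncertain.

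Beside Olah and Neurog3, the 15 highest ratios held Tmc3, Gpx2, Hs3st1 and Cftr. Tmc3 (chr7:83584904-83626852), of the transmembrane channel-like family, rose from 10.6 CPM with DMSO to 38.3, 57.4 and 110 CPM (1.76 at 0.5 µM, 1.41 to 2.32). It was higher at each further dose. Gpx2 (chr12:76792335-76795554), a glutathione peroxidase of epithelia, was at 5.79, 30.8, 20.1 and 15.3 CPM (2.23, 1.83 to 3.04) and so was highest at 0.5 µM. Hs3st1, a heparan sulfate sulfotransferase, was at 6.39, 18.1, 18.3 and 14.7 CPM (1.37, 0.91 to 2.13). Cftr, the chloride channel of epithelia, was at 4.19, 12.3, 6.81 and 9.85 CPM (1.36, 0.83 to 2.34). In all of these the DMSO library was the lowest of the 4. In the day 0 feeder library Tmc3 was at 24.0 CPM and Neurog3 at 16.6 CPM, above DMSO, whereas Gpx2 was below it.

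**Figure D4:**
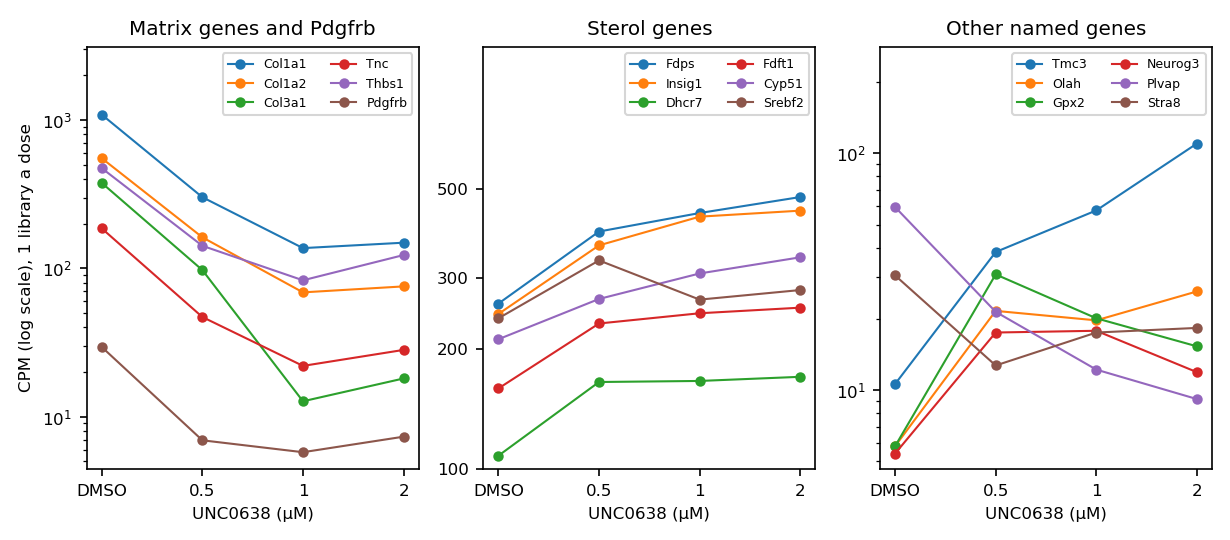
CPM (y axis, log scale) in the DMSO, 0.5, 1 and 2 µM libraries (x axis, 1 library a dose) for matrix genes and Pdgfrb (left), sterol genes (middle) and other named genes (right). The matrix genes fall from DMSO to 0.5 µM (Col1a1 from 1088 to 302 CPM) and are lowest at 1 µM, Fdps and Insig1 are higher at every dose, and Tmc3 climbs to 110 CPM while Gpx2 is highest at 0.5 µM.

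Several of the largest ratios belong to a multicopy gene, to predicted loci or to genes with 0 counts in a library. Whether reads were shared between copies was not tested. Ott, an X-linked multicopy gene of the male germ line, was at 29.3, 122, 71.6 and 115 CPM (2.02), and LOC100039934 at 93.6, 0, 71.6 and 8.02 CPM, at least 162-fold lower at 0.5 µM. Both models are 2028 bases long, and their sum was 123 CPM with DMSO and 122 CPM at 0.5 µM, beside 143 and 123 CPM at the higher doses. The pair was chosen after its values were seen. Tom1, an endosomal sorting gene, had 0 counts with DMSO and 17.7, 15.5 and 0 CPM at the rising doses, at least 29.6-fold higher at 0.5 µM, and LOC100041500 had 0 counts and 10.2 CPM, at least 17.0-fold higher. LOC676691 and LOC100041932 were high at 0.5 µM (44.1 and 16.0 CPM) and at 0 at 2 µM. Rps29, a ribosomal protein gene, was at 13.6 and 40.4 CPM (1.51). Predicted loci made up 22.1% of the higher and 13.8% of the lower genes, against 8.43% of genes past the filter.

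The lowest ratios outside the lists included Osr1, a transcription factor of mesoderm, which fell to 2.31 CPM (-1.86), and Ccdc80, which encodes a matrix-binding protein and fell from 37.9 to 11.2 CPM (-1.68). LOC100042874 was at 200, 50.8, 178 and 158 CPM (-1.96), low at 0.5 µM alone. Pcdhga4, of the gamma protocadherin cluster whose members share exons, was at 10.8, 0.770, 2.62 and 2.29 CPM (-2.73).

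Apart from the endothelial markers, the lists of this paragraph had medians close to that of all genes, of which 1.58% were called higher and 2.13% lower. The endothelial list had a median of -0.97, with 2 of 5 members past the filter called lower. Epithelial junction genes had a median of -0.08 with 1 of 15 called lower. The list of mitochondrial genome and cytosolic ribosome genes had 0.01 with 1 of 14 called lower. Cell cycle genes had 0 calls in 25 and a median of -0.04. The GDNF and FGF feedback list had a median of -0.10, with Myc its only call (14.6 to 6.74 CPM, -1.01, and -0.98 in TPM). Dusp6, a phosphatase induced by ERK, was at 296 and 268 CPM (-0.14), and the cyclin gene Ccnd1 at 135 and 89.4 CPM (-0.59, -0.77 to -0.42). In the list of CDK inhibitors and p53 targets only Perp was called, from 2.00 to 7.32 CPM (1.47), and Cdkn1a (p21) was at 117, 76.3, 49.2 and 61.6 CPM (-0.62, -0.81 to -0.44). The endoplasmic reticulum and amino acid stress list had 1 call, Nupr1 (16.4 to 6.93 CPM, -1.13), with Hspa5 at 911 and 820 CPM (-0.15). Glycolysis genes had 1 call, Egln3 (6.39 to 15.6 CPM, 1.17). Of 17 imprinted genes past the filter Grb10 fell (32.1 to 14.6 CPM, -1.08), as did Dcn, which is in the matrix list too. Interferon-stimulated genes had a median of 0.08 and 2 weakly expressed calls, Rtp4 (2.00 to 5.39 CPM) and Mx2 (0.399 to 2.12 CPM). Mx2 had 2 counts with DMSO, so its call rests on very few reads. Both were under 2-fold with a pseudocount of 5 (0.57 and 0.40), Rtp4 also after centring on the germ cell list (0.95) and Mx2 in TPM (0.96). The calls of Myc, Perp, Nupr1, Egln3 and Grb10 were also under 2-fold with that pseudocount.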

How the data were processed

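RNA libraries of a modified Smart-seq2 procedure, per the labels' protocols, were compared between 1 DMSO and 1 UNC0638 library. The other 10 RNA libraries entered the scaling and the filter, and levels or ratios from 5 of them (1 and 2 µM, day 0 feeder, mesenchymal-like and epithelial-like) are given beside the comparison. Per the file headers, the deposited tables give 27128 genes a gene length, expected counts, TPM and FPKM. The expected counts are estimated counts that the authors left unnormalized, and in the TPM column the authors' values are relative to transcript length and a fixed library total. The deposited lengths were used for 1 pair of genes. Trim Galore, RSEM and mm10 are named in the submitters' processing notes, and the aligner is not given in the sources used here. In the DMSO and 0.5 µM libraries, 8.519% and 8.932% of genes had expected counts that were not whole, so reads had been divided between genes. FPKM and the ATAC libraries were not analysed.

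Expected counts were rounded. CPM used TMM factors of edgeR 4.0.16 in R 4.3.3 (0.994 and 0.9928 for DMSO and 0.5 µM). The filter was a mean CPM of 1 across 12 libraries. Ratios used a pseudocount of 1, which understates the change of low genes, and calls required 2-fold. Clopper-Pearson intervals (95%) used no pseudocount. Since amplified reads lacking molecular identifiers do not count molecules, these intervals and the floor of 3 counts cover counting error alone. Named genes were the 15 highest and 15 lowest ratios with at least 50 counts, members of 27 lists, Tmc3, Fdps and Col1a1. The comparison, its markers and the lists were chosen with earlier results of these data known. Table symbols were matched by transcript to RefSeq GRCm38.p6 (18217 genes), which gave coordinates and promoters. Alternatives were DESeq2 1.42.0 size factors, total counts, TMM over 4 libraries, TPM, pseudocounts of 0.1 and 5, other filters, other fold thresholds, and, added after seeing the data, centring on the germ cell list. A few members of the lists are not reported here by name, but these genes remain in the list counts and medians. The ratio calls and the intervals were tried on simulated counts that varied by counting error only. TMM scaling, the lists, the matching of symbols and the promoter search were not part of that simulation. Other tools were matplotlib 3.10.9, scipy 1.17.1, pandas 2.3.3 and numpy 2.4.6 in Python 3.11.15.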

Additional observations from a re-analysis of the deposited data

How the results depend on the processing

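The 226 higher and 305 lower genes were 550 and 619 with a pseudocount of 0.1, 16 and 60 with 5, 25 and 71 with a filter at 10 CPM, and 877 and 1090 at 1.5-fold. Centring on the germ cell list gave 146 higher and 456 lower genes. The other settings (DESeq2 size factors, total counts, TMM over 4 libraries, TPM, no filter, a filter on the 2 libraries, and the counting interval added) gave 212 to 299 higher and 254 to 397 lower. Calls were 42.6% higher, against 21.1% with a pseudocount of 5 and 26.0% with a filter at 10 CPM. The sterol synthesis median was 0.33 to 0.38 over the settings other than germ cell centring (0.19), the collagen median -0.92 to -0.67 and the fibroblast median -0.96 to -0.65 over all settings run. Of 72 named genes called, 0 reversed under any setting run; 1 (Bgn, -0.99) was under 2-fold with DESeq2 size factors, 7 with TPM (Mx2 at 0.96 among them), 20 with a pseudocount of 5 and 1 (Rtp4, 0.95) after centring. No paired analysis was possible because each RNA group has 1 library, and no library could be left out. At this depth, a ratio with 3 counts or fewer on a side is poorly determined, and most rises were in genes under 50 counts.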

Other observations

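Secreted proteins of the inflammatory and acute-phase kind, outside the lists and chosen after their values were seen, did not follow the collagens alike. Hp (haptoglobin) was at 161 CPM with DMSO, then 63.9, 15.4 and 23.4 CPM at 0.5, 1 and 2 µM (-1.32 at 0.5 µM, -1.52 to -1.14). Saa3 (serum amyloid A3) was at 421, 251, 82.9 and 184 CPM (-0.74, -0.85 to -0.65), and the protease inhibitor gene Serpina3n at 198, 109, 31.2 and 71.2 CPM (-0.86, -1.02 to -0.71). Lcn2 (lipocalin 2) was at 131, 158, 67.7 and 105 CPM (0.27, 0.12 to 0.42), so it lay above DMSO at 0.5 µM and below it at the higher doses. In the day 0 feeder library these 4 genes were at 5.96, 19.8, 2.72 and 3.89 CPM. The chemokine genes Ccl2 (68.1 to 28.7 CPM, -1.22) and Ccl7 (52.3 to 22.7 CPM, -1.17) fell together, as did the collagenase gene Mmp13 (10.8 to 3.08 CPM, -1.53) and the stromelysin gene Mmp3 (72.7 to 27.9 CPM, -1.35).

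Neighbouring genes that were both called were mostly lower. Of 12176 genes past the filter that were placed on GRCm38.p6, 150 rose and 235 fell. Among neighbours in the order of these genes alone, 14 pairs both fell and 2 pairs both rose. Genes left out of that order can lie between neighbours, and Tnc with Pappa spans chr4:63959785-65357509. The lower pairs included Col3a1 with Col5a2, Dcn with Lum, Ccl2 with Ccl7, Mmp13 with Mmp3, Adamts1 with Adamts5 and Tnc with Pappa. Members of several pairs are related copies or matrix genes, and no chance level was computed.

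Some genes were at their extreme at 0.5 µM. With at least 50 counts in the higher library, 13 genes lay at least 1.5-fold above all of DMSO, 1 µM and 2 µM, and 22 at least 1.5-fold below all of them, by a rule set after the values were seen that does not ask for closeness to DMSO at the higher doses. Prkar1b, a regulatory subunit of protein kinase A, was at 6.19 CPM with DMSO, then 14.1, 6.46 and 6.87 CPM at 0.5, 1 and 2 µM. Arpc3, of the actin-nucleating ARP2/3 complex, was at 104, 51.0, 88.5 and 86.4 CPM. With 1 library a dose, a response particular to 0.5 µM and a feature of that 1 library cannot be told apart.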
